A study of Mus musculus with 8 samples.

Results

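The sites described here are the METTL14-bound regions of mouse embryonic stem cells that lay at noncoding RNA genes. Overlapping METTL14 peaks of 4 libraries were merged into 8091 regions. A region was kept when it was neither inside nor within 2 kb of a protein-coding gene but was inside or within 2 kb of a gene of another RefSeq biotype, whatever the number of libraries that called it. This left 826 regions, 10.2% of all. Another 5666 regions lay at protein-coding genes, 1476 away from all genes, and 123 on sequences that the gene table does not place.

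The sites were mapped by CUT&RUN, in which a nuclease tethered to an antibody cuts the DNA around a bound protein and the released fragments are sequenced. METTL14 was profiled with a rabbit antibody in C57BL/6 embryonic stem cells labelled Mettl3 control and Mettl3 CKO, 2 libraries each, and METTL3 in Mettl14 control and Mettl14 CKO cells, likewise with 2 libraries each. All cells grew in serum with the cytokine LIF and the inhibitors CHIR99021 and PD0325901, which hold embryonic stem cells undifferentiated. The labels do not say how the CKO cells were made, nor whether libraries sharing a label were made from separate cultures. The p-values below therefore measure only the spread between these libraries, which may be technical.

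METTL14 and METTL3 form the enzyme complex that writes N6-methyladenosine on RNA: METTL3 holds the catalytic site and METTL14 helps to bind the RNA. Noncoding RNA genes are transcribed by different machineries. RNA polymerase III makes tRNAs, 7SK, the Y RNAs and the RNA of the signal recognition particle from short genes, many of them in clusters, whereas lncRNAs, most spliceosomal snRNAs and most miRNA precursors come from RNA polymerase II. Pseudogenes are copies of other genes, counted here whether or not RefSeq marks them as transcribed.

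Start windows of 4 lncRNA genes are shown as examples of those that a METTL14 region of 3 or 4 libraries overlapped. Others, such as those of Gm2885 and Gm36767, are not shown. In none of the 4 did the region reach the annotated start, whereas at Gm2885 and Gm36767 it did. Of the windows described below, 3 are rich in CpG and that of Gm30145 is poor in it. Each is the RefSeq sequence (GRCm38.p6, the assembly behind mm10) of the transcribed strand's sense, from 250 bases before to 50 bases after the annotated start, 5′ to 3′. Capitals mark the bases inside the METTL14 region. The window of 1700113A16Rik is chr3:88177736-88178035 (minus strand), that of Gm30145 is chr10:111378226-111378525 (minus strand), that of Gm39054 is chr7:98815881-98816180 (plus strand) and that of Snhg16, a snoRNA host gene, is chr11:116671410-116671709 (plus strand).
1700113A16Rik: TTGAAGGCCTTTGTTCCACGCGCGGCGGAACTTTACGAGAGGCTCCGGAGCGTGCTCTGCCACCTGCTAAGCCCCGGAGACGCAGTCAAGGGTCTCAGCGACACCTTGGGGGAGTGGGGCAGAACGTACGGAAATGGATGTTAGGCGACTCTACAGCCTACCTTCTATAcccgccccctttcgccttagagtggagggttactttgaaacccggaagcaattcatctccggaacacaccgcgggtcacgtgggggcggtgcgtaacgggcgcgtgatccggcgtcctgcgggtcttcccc
Gm30145: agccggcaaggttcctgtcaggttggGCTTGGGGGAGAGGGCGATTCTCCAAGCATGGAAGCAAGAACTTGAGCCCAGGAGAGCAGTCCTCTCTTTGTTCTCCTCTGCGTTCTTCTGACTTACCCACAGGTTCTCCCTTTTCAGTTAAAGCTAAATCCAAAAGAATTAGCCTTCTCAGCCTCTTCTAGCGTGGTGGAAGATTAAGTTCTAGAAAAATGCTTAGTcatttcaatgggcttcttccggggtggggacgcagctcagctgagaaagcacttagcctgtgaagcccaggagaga
Gm39054: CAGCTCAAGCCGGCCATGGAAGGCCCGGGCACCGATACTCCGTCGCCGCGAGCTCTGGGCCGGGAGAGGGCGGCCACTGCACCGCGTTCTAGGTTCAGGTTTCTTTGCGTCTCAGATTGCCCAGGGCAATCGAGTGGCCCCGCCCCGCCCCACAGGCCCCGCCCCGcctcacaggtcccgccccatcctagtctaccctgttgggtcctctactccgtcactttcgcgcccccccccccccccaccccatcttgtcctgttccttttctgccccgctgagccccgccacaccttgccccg
Snhg16: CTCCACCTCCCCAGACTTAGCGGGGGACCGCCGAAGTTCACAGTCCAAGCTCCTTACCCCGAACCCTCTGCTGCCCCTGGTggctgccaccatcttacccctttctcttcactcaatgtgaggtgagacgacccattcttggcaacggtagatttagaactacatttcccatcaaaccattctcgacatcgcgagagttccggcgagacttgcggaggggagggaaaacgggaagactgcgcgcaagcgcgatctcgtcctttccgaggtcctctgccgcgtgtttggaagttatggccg

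Mature miRNAs from RefSeq are shown for 2 of the pairs of miRNA genes that shared both a METTL14 region and a seed, bases 2 to 8, given in capitals. The miR-132 and miR-212 genes lie next to each other and share the seed AACAGUC. The miR-17 and miR-20a genes belong to the Mir17 cluster and share the seed AAAGUGC.
miR-132-3p: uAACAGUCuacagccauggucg
miR-212-3p: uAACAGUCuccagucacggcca
miR-17-5p: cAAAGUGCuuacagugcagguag
miR-20a-5p: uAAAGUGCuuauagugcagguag

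The noncoding share of METTL14 peaks was nearly the same in every library. The control libraries had 306 of 3129 and 366 of 3546 peaks at noncoding genes (9.78% and 10.3%), and the CKO libraries 404 of 3922 (10.3%) and 148 of 1439 (10.3%). The mean share was 10.05% ± 0.383 in the control libraries and 10.29% ± 0.0113 in the CKO libraries (SD, n = 2 each), a difference of 0.242 percentage points (exact two-sided permutation test of the labels, p = 1). The number of peaks was 336 ± 42.4 and 276 ± 181 (SD, n = 2), a difference of −0.45 on the log2 scale (exact two-sided permutation test, p = 1), and without CKO replicate 2, whose whole list was the shortest, it was 0.27. With 2 libraries a group no such exact test can go below p = 0.333. The lists hold no read depth, so the number of peaks cannot be told apart from sequencing depth.

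Most sites were called once. Of the 826 regions 584 were called in 1 library, 133 in 2, 62 in 3 and 47 in all 4. At least 2 libraries called 242 of them (29.3%, 95% Wilson interval 26.3 to 32.5%), beside 29.3% of all merged METTL14 regions. All 4 libraries called 5.69%, beside 5.78% of all regions, so the noncoding sites were called repeatedly about as often as the rest. A call in 1 library did not always stand alone: 160 of the 584 (27.4%) had a peak of another METTL14 library within 500 bp that they did not touch. This held for 57 of 93 single-library sites at tRNA genes (61.3%) and 100 of 423 at lncRNA genes (23.6%), beside 23.1% of all single-library regions. Within each library, the share of peaks also called in another METTL14 library was 52.9%, 47.5%, 46.3% and 79.1% at noncoding genes and 52.6%, 50.9%, 48.4% and 77.0% at protein-coding genes, in the order control 1, control 2, CKO 1, CKO 2. The mean difference was −0.785 percentage points (n = 4 libraries, exact two-sided sign-flip permutation test, p = 0.625).

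lncRNA genes held the most sites and tRNA genes the densest. A region can lie near genes of several biotypes and was then counted for each: 579 regions (70.1%) were at lncRNA genes, 161 (19.5%, interval 16.9 to 22.3%) at tRNA genes, 112 (13.6%) at pseudogenes and 38 (4.60%) at snRNA genes. Few lay at miRNA genes (10), snoRNA genes (4), annotated rRNA genes (2), immune receptor segments (2) or other noncoding genes (12). Both a lncRNA and a tRNA gene lay near 45 regions. Measured against the length of these genes with 2 kb on each side, away from protein-coding genes, there were 179 regions per Mb at tRNA genes, 15.4 at snRNA genes, 9.30 at miRNA genes, 2.92 at lncRNA genes, 1.97 at pseudogenes and 1.36 at snoRNA genes. Protein-coding genes had 5.16 regions per Mb. The 2 regions at annotated rRNA genes, both mitochondrial, gave 17.3 per Mb over only 0.116 Mb of windows.

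The order of tRNA, snRNA and lncRNA genes by density was the same in each library. Peaks per Mb at tRNA genes were 66.8 in control 1, 83.5 in control 2, 109.2 in CKO 1 and 47.9 in CKO 2. At lncRNA genes they were 1.06, 1.28, 1.40 and 0.505 in the same order, so the tRNA density was 63.0, 65.1, 78.0 and 94.8 times that at lncRNA genes. At snRNA genes peaks were 5.60 to 6.65 times as dense as at lncRNA genes, and at pseudogenes 0.577 to 0.828 times. The lncRNA density was 0.542 to 0.566 times that at protein-coding genes. The windows of short clustered genes are mostly flank, and the ratio of tRNA to lncRNA density over merged regions moved from 61.3 to 103.6 with a 1 kb window and to 38.1 with a 5 kb window.

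**Figure D1:**
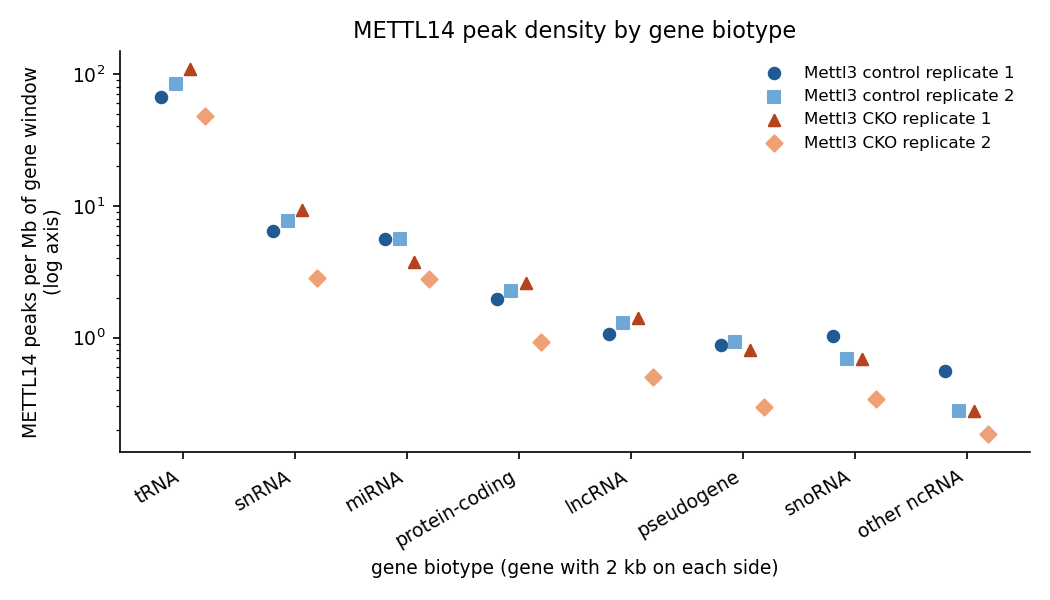
METTL14 peaks per Mb of gene window (gene with 2 kb on each side, log axis) by gene biotype, 1 symbol per library. In each library tRNA genes were highest, at 47.9 to 109.2 peaks per Mb, and lncRNA genes lay below protein-coding genes. Annotated rRNA genes and immune receptor segments are not drawn.

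About 1 in 2 nuclear tRNA genes away from protein-coding genes carried a METTL14 site. A region lay within 2 kb of 161 of 313 such genes (51.4%), beside 3.44% of all noncoding genes away from protein-coding genes (606 of 17621). The numbers were 105, 123, 139 and 84 genes in control 1, control 2, CKO 1 and CKO 2. At least 2 libraries marked 129 of the 313 tRNA genes and all 4 marked 62. Neighbouring tRNA genes can share a region, so these genes are not independent of one another. By comparison 313 of 7025 lncRNA genes (4.46%), 16 of 343 miRNA genes (4.66%), 23 of 601 snRNA genes (3.83%), 77 of 7714 pseudogenes (0.998%) and 6 of 825 snoRNA genes (0.727%) had a region. A further 90 nuclear tRNA genes were too close to protein-coding genes for the rule. Of the tRNA regions 68 of 161 (42.2%, interval 34.9 to 49.96%) were called in at least 2 libraries, and of the lncRNA regions 156 of 579 (26.9%, interval 23.5 to 30.7%).

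METTL14 peaks sat beside tRNA genes rather than on them. Of 276 peaks at tRNA genes 256 (92.8%, interval 89.1 to 95.3%) had their centre within 300 bp of a tRNA gene, whereas 22.4% of the bases of the 2 kb windows lie that close. The shares by library were 59 of 60, 66 of 75, 90 of 98 and 41 of 43. The median distance from peak centre to gene was 129, 119, 117 and 116 bp in control 1, control 2, CKO 1 and CKO 2. Only 8 centres lay inside a tRNA gene and 35 of the 276 peaks (12.7%) touched one. The called peaks were 149 bp wide and the median tRNA gene was 72 bp long, so a peak centred on a gene would have covered it. Peaks fell on either side: of the 132 tRNA genes with a peak centre within 300 bp, 46 had it at lower coordinates only, 49 at higher coordinates only and 33 on both sides. The gene table gives no strand for these genes, so upstream and downstream were not determined. Whether reads from repeated tRNA sequence were kept is not given in the sources used here.

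**Figure D2:**
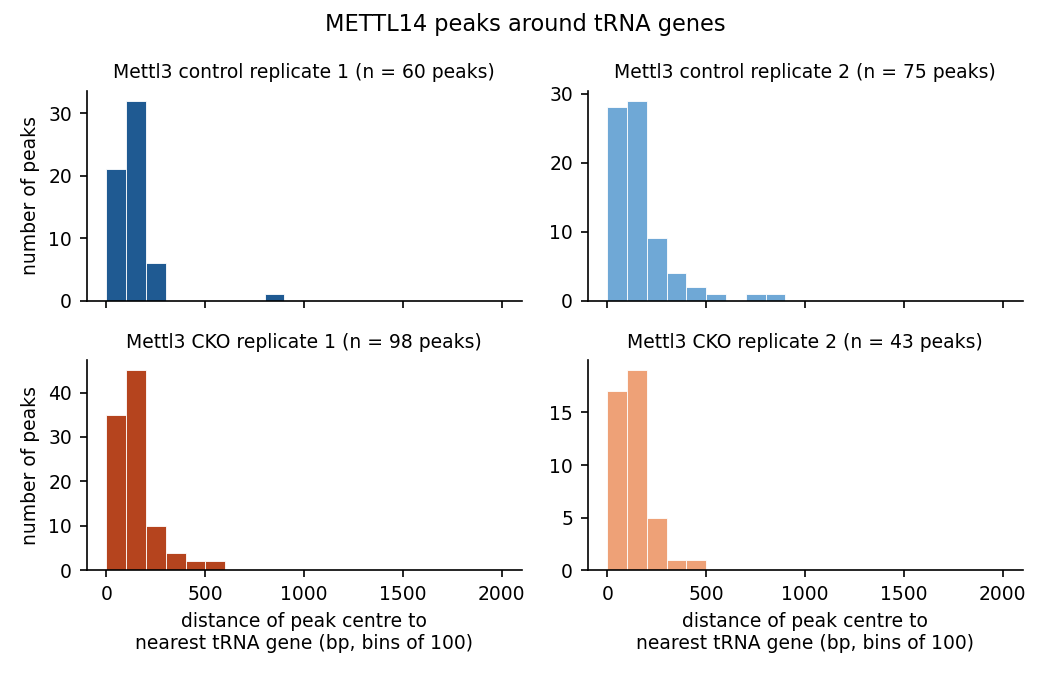
Number of METTL14 peaks (vertical axis) by the distance of the peak centre to the nearest tRNA gene (horizontal axis, bp, bins of 100), 1 panel per METTL14 library. Nearly all peaks lie within 300 bp in each panel (59 of 60, 66 of 75, 90 of 98 and 41 of 43), and the median distances are 116 to 129 bp.

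tRNA genes of 1 amino acid stood apart, a contrast chosen after its values were seen. Of 52 tRNA-Cys genes only n-TCgca52 had a region (1.92%, interval 0.340 to 10.1%), against 160 of 261 genes of the other amino acids (61.3%, interval 55.3 to 67.0%). The tRNA-Cys genes with a peak numbered 0, 1, 1 and 0 in control 1, control 2, CKO 1 and CKO 2, and the other tRNA genes 105, 122, 138 and 84. Most tRNA-Cys genes share a location: 49 of the 52 lie on chr6:47978997-48363603, and 0 of those 49 had a region. Amino acid and location therefore cannot be told apart for these genes. The other amino acids ranged from tRNA-Ala, with 12 of 28 genes (42.9%), to tRNA-Pro, with 13 of 14 (92.9%). Between them came tRNA-Val with 15 of 18, tRNA-Ile with 9 of 11, tRNA-Leu with 15 of 20 and tRNA-Arg with 11 of 15, and the intervals of most amino acids overlapped. No site at a tRNA gene lay on the X chromosome, where tRNA-Ala genes such as n-TAtgc2 and n-TAcgc4 lie. Location thus also enters the low share of tRNA-Ala.

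**Figure D3:**
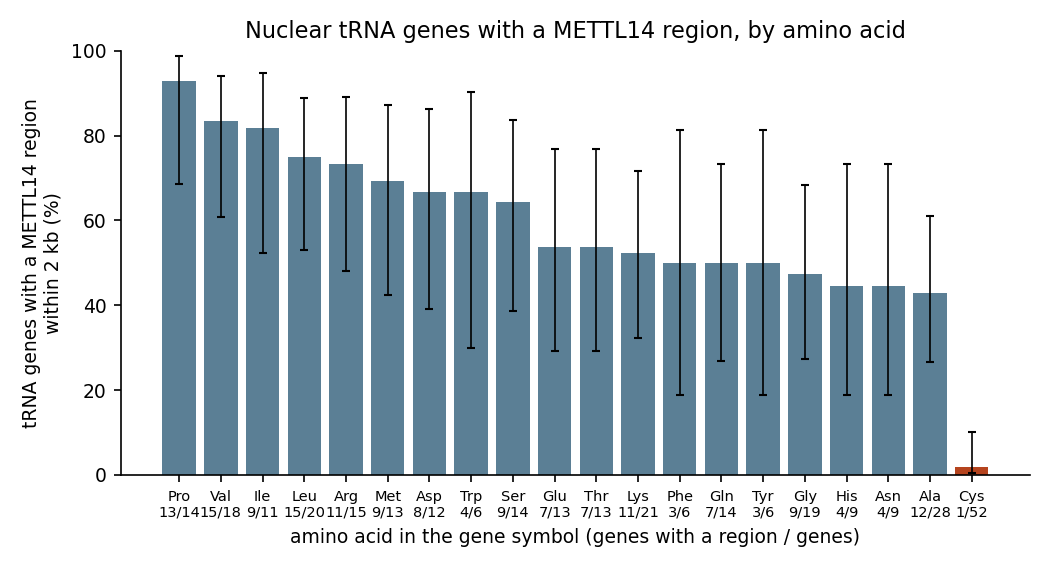
Percentage of nuclear tRNA genes with a METTL14 region within 2 kb, by the amino acid in the gene symbol, with 95% Wilson intervals as error bars and the numbers of genes under each bar. tRNA-Cys stands at 1 of 52 genes and the others between 12 of 28 (Ala) and 13 of 14 (Pro).

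The tRNA sites were concentrated on chromosome 13. The stretch from 21 to 24 Mb held 86 of the 826 sites, 85 of them at tRNA genes, and 79 of its 100 tRNA genes (79.0%) had a region. Elsewhere 82 of 213 tRNA genes (38.5%) had one. Those 213 include the 49 tRNA-Cys genes of the chromosome 6 stretch, of which 0 had a region, so they lower the share elsewhere. Of the regions called in all 4 libraries, 4 lay in this stretch: chr13:21160915-21161346 at n-TEctc11 and n-TFgaa4, chr13:21855811-21855982 at n-TIaat11 and n-TTagt4, chr13:23298840-23299085 at n-TVaac6, n-TAagc11 and n-TVcac4, and chr13:23432825-23433000 at n-TAagc13 and n-TYgta7. Other tRNA regions of all 4 libraries were chr1:171102453-171102705, at genes for leucine, aspartate, glycine and glutamate tRNAs (n-TLcag9, n-TDgtc5, n-TGtcc3, n-TEctc6), and the pair chr3:19627979-19628195 and chr3:19628463-19628829 in a cluster of n-TRacg3, n-TYgta1, n-TYgta2 and n-TAagc14. The regions chr3:96427971-96428188 at n-TKctt15 and chr7:120835692-120835859 at n-TLtag1 each had 1 noncoding gene within reach. The remaining nuclear ones were chr2:57182223-57182383 at n-TAcgc8 and n-TGgcc8, chr2:122377600-122377815 at n-THgtg3 and n-THgtg5, chr14:51065009-51065159 at n-TLaag8, n-TPagg4 and n-TTtgt3, and chr19:12012036-12012230 at n-TLtaa4, n-TRtct1, n-TVtac1 and n-TVtac2. The mitochondrial genome held 12 of all METTL14 regions, 2 of them noncoding sites. Of these 2 sites, the one called in all 4 libraries spanned positions 72 to 222. It lay over the start of the 12S rRNA gene mt-Rnr1 and beside TrnF.

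The tRNA share of the noncoding sites was higher in both CKO libraries than in both control libraries. It was 60 of 306 peaks (19.6%) and 75 of 366 (20.5%) in control libraries, and 98 of 404 (24.3%) and 43 of 148 (29.1%) in CKO libraries. The groups did not overlap, and the means were 20.05% ± 0.625 and 26.66% ± 3.39 (SD, n = 2), 6.61 percentage points apart. The exact two-sided permutation p was 0.333, the smallest the design allows, and 1 after Benjamini-Hochberg adjustment over 9 biotypes, so no difference was shown. When each list was shortened to its first 1439 peaks, the length of the shortest, the difference was 2.52 points (exact permutation p = 0.667) and the groups overlapped. Pseudogenes went the other way, with 16.3% and 14.5% in control and 11.4% and 11.5% in CKO libraries (difference −3.97 points, exact permutation p = 0.333, adjusted p = 1). The lncRNA share was 68.6% and 69.4% in control and 68.6% and 67.6% in CKO libraries (difference −0.947 points, exact permutation p = 0.333, adjusted p = 1). The snRNA share had a mean of 5.21% in both groups (SD 0.0265 and 0.681, n = 2).

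**Figure D4:**
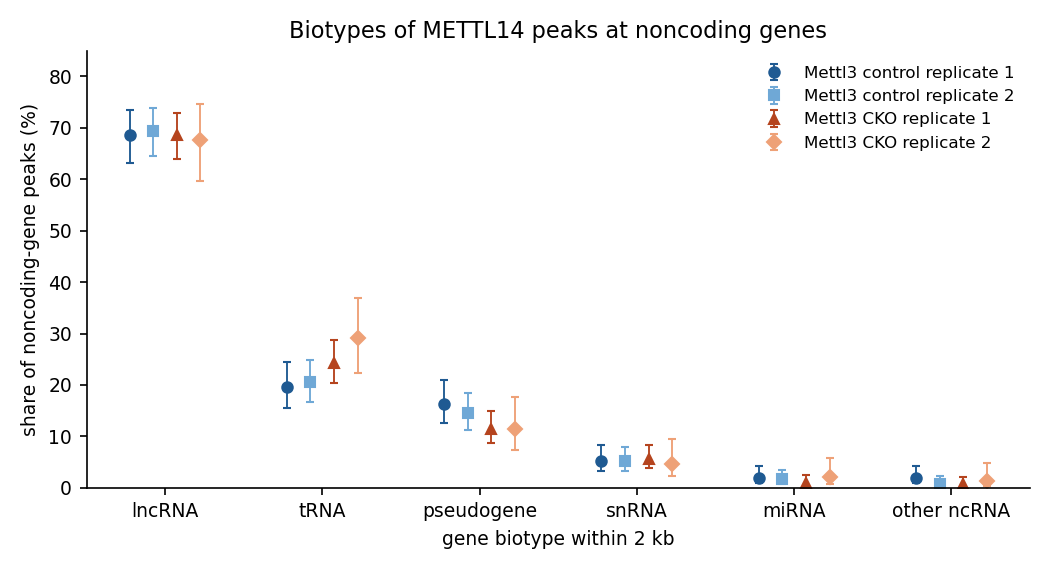
Percentage of each library's METTL14 peaks at noncoding genes (vertical axis) that lay at each gene biotype, with 95% Wilson intervals as error bars. The tRNA share is 19.6% and 20.5% in the control and 24.3% and 29.1% in the CKO libraries, while the lncRNA share is 67.6% to 69.4% throughout.

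Sites seen in 1 genotype only were few. Both control libraries and no CKO library called 27 regions (3.27%), beside 3.00% of all METTL14 regions. Both CKO libraries and no control library called 10 (1.21%), beside 1.74% of all regions. With lists of equal length the counts were 7 control-only and 9 CKO-only regions, so the larger control-only number was not kept. Of the 27 control-only regions 11 had a CKO peak within 500 bp, and of the 10 CKO-only regions 5 had a control peak that near. At LOC115490388 on chromosome 6, for example, chr6:3182976-3183204 was called in both CKO libraries and chr6:3183207-3183400, immediately beside it, in both controls. The control-only regions earliest in the lists also included chr17:39847582-39847735 at the 18S rRNA copy Rn18s-rs5, chr13:21167904-21168052 among n-TMcat14, n-TKctt28 and the lncRNA gene Gm32298, chr6:83701072-83701265 in Vax2os, and chr4:57920413-57920591 at Gm42293. The CKO-only ones included chr3:96500562-96500747 at n-TKctt16, chr9:87739744-87740023 at Gm36767, the pseudogene Gm10144 at chr9:65598888-65599044, and chr1:171037164-171037313 at n-TDgtc4. At Gm36767 a second region, chr9:87739255-87739418, was called in control 2 and both CKO libraries.

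Sites at snRNA genes were fewer than at tRNA genes and also mostly flanked the gene. Of 65 peaks at snRNA genes 44 (67.7%, interval 55.6 to 77.8%) had their centre within 300 bp of the gene, and 5 touched it. The median distance was 126 bp. The libraries had 16, 19, 23 and 7 such peaks. A region called in all 4 libraries, chr11:101657806-101657969, lay 269 bp from Rnu2-10, a gene of U2, the snRNA that pairs with the branch point in splicing. Further ones of all 4 libraries lay at the snRNA genes Gm26316 (chr11:101604655-101604840) and Gm23287 (chr4:117210617-117210803). Among the RNAs of basic cell functions, 7 of 24 listed noncoding genes had a site and 8 more had one only near a protein-coding gene. Over all biotypes, 756 of 27848 noncoding genes (2.71%) had a noncoding site. Rnu5g, a U5 snRNA gene, had chr9:65201875-65202024 in control 2 and CKO 2, and Rn7sk, whose RNA holds the elongation factor P-TEFb inactive, had a site at its end in CKO 1 alone. Rn7s2, a gene for the signal recognition particle RNA, had chr12:69361422-69361585 in control 1 and both CKO libraries. The Y RNA genes Rny1 and Rny3 had only sites of 1 library.

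Most sites at lncRNA genes touched the gene itself. Of 579 lncRNA regions 447 shared at least 1 bp with the lncRNA gene, and 621 of 841 peaks had their centre in it. The share of window bases inside lncRNA genes was not computed, so no preference for the gene over its flanks is shown. An annotated start was given for the genes of 373 regions. Of these 92 (24.7%) lay within 500 bp of a start and 189 (50.7%) within 2 kb, with a median distance of 1912 bp. A protein-coding gene lay within 10 kb of 209 of the 579, beside 320 of all 826 noncoding sites. The median distances to a protein-coding gene were 17993 and 14837 bp.

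The lncRNA start windows that METTL14 regions overlapped were rich in CpG. Regions overlapped 58 of the 7100 start windows of lncRNA genes away from protein-coding genes. The 58 windows came from 51 genes and the 7100 from 5821, so windows of the same gene were counted separately. The 58 had a median of 16 CpG (quartiles 6.25 to 22.75) in 300 bases, against 3 (quartiles 2 to 6) over all 7100. The median was 18 in the 26 windows, from 23 genes, whose region was called in at least 2 libraries. Median GC content was 57.0% against 47.0%. The GC box GGGCGG, searched on both strands as GGGCGG or CCGCCC, occurred in 32 of the 58 windows (55.2%), in 19 of the 26 (73.1%) and in 636 of all 7100 (8.96%). A match is only these letters, and a window richer in G and C holds them more often. That of Gm39054 had 24 CpG and 5 GC boxes, 4 of them inside the region called in control 1, control 2 and CKO 1. That of 1700113A16Rik, overlapped in all 4 libraries by chr3:88177867-88178050, had 28 CpG and 2 GC boxes, both outside the region. That of Snhg16, called in control 1, control 2 and CKO 1, had 22 CpG, and that of Gm30145, called in control 2 and both CKO libraries, had 6. Neither held a GC box. Gm39054 also lay within 2 kb of the tRNA genes n-TPtgg8 and n-TPagg7.

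**Figure D5:**
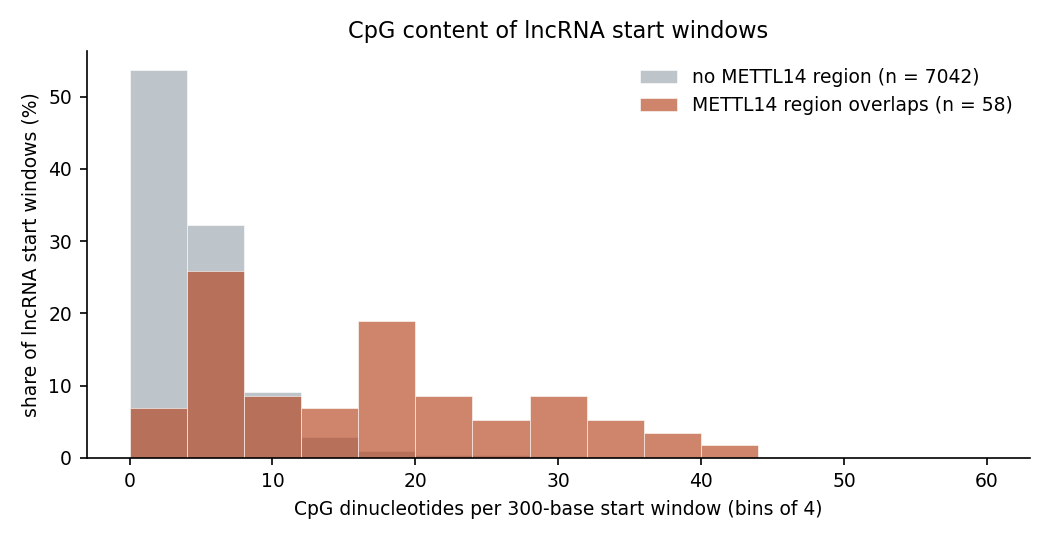
Share of lncRNA start windows (vertical axis, %) by the number of CpG dinucleotides in the 300-base window (horizontal axis, bins of 4), for the 58 windows overlapped by a METTL14 region and the 7042 without one. The median is 16 CpG in the first set and 3 in the second.

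Several lncRNA genes beside developmental transcription factor genes carried METTL14 sites. Among 20 such RNAs that could be matched, 7 had a noncoding site: Dlx6os1, Sox2ot, Sox1ot, Otx2os1, Nkx2-2os, Pantr1 and Vax2os. Of all lncRNA genes, 444 of 12639 (3.51%) had one. The genes with a site included long ones, such as Nkx2-2os (147.6 kb), Otx2os1 (124 kb) and Sox2ot (117.6 kb), against a median lncRNA gene length of 8456 bp. Another 10 had regions only near a protein-coding gene, and those regions are outside the rule. The 7 genes held 20 regions, 5 of them in at least 2 libraries. Vax2os, antisense to the eye-patterning gene Vax2, had 5, among them chr6:83702442-83702609 in control 1, control 2 and CKO 1 and chr6:83702840-83702994 in control 2, CKO 1 and CKO 2. Nkx2-2os had chr2:147293279-147293472 in control 2 and both CKO libraries. Sox2ot, the host transcript around the pluripotency gene Sox2, had 3 regions, each of 1 library, and Otx2os1 had 5, also each of 1 library.

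The next 3 lists had few genes with a site and are given beside the same 2.71% of noncoding and 3.51% of lncRNA genes. Of the Hox cluster RNAs 2 of 16, Hottip and Haglr, had noncoding sites, each of 1 library, and 10 had regions only near a protein-coding gene. Among imprinted and X inactivation RNAs 2 of 14 had one. Meg3, expressed from the maternal chromosome, had chr12:109542795-109543012 in control 2 and CKO 2, and Snhg14 had a single-library site. Only 1 of 20 snoRNA host genes, Snhg16, had a noncoding site, and 5 had regions only near a protein-coding gene.

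Of 27 lncRNAs known in embryonic stem cells or nuclei 7 had sites, beside 3.51% of all lncRNA genes. Platr10, named as a pluripotency-associated transcript, had chr3:75650663-75650846 in all 4 libraries. Platr22 had chr1:136695183-136695523 in control 2 and both CKO libraries, and Platr26 had chr2:71719179-71719333 in control 1 and CKO 1. Malat1 and Neat1, abundant RNAs of nuclear speckles and paraspeckles, had 2 and 1 regions at higher coordinates than the gene, each of 1 library. A region of 1 library overlapped the start window of Malat1.

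Sites at miRNA genes were 10 regions near 16 genes. The neighbours Mir132 and Mir212, whose products were printed above with their shared seed, had chr11:75173264-75173468 in control 1 and control 2 and in no CKO library. The Mir17 cluster had chr14:115042319-115042467, a site of control 1 alone that was 1204 bp from Mir17. Mir9-3, which makes the neural miR-9, had chr7:79504936-79505090 in control 2 and CKO 1. Mir101c had the one miRNA region of all 4 libraries, chr9:3037855-3038118, 551 bp from the gene, and all 4 METTL3 libraries also had a peak there.

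Few noncoding genes had many sites. The noncoding genes near a region had 1 region in 497 cases and 5 or more in 19. Gm29683, whose regions lay 19852 to 71157 bp from Nr2f2, had 7 regions, 1 of them in at least 2 libraries. The lncRNA genes 4930557F10Rik and Gm32298, both in the tRNA-rich stretch of chromosome 13, and the pseudogene Speer8-ps1 had 6 each.

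METTL3 peaks touched few METTL14 sites at noncoding genes. A METTL3 peak of any of the 4 METTL3 libraries overlapped 27 of the 826 regions (3.27%), beside 3.34% of all METTL14 regions. The METTL3 lists were short, with 353 and 341 peaks in Mettl14 control and 242 and 344 in Mettl14 CKO cells. Their length limits how many METTL14 regions they can touch, so a region without a METTL3 peak is not shown to lack METTL3. By METTL14 library the overlapped share of peaks was 6.54%, 6.28%, 4.95% and 12.8% at noncoding genes (20, 23, 20 and 19 peaks), against 2.98%, 2.29%, 1.70% and 3.91% at protein-coding genes. It was higher at noncoding genes in 4 of 4 libraries, by a mean of 4.93 percentage points (exact two-sided sign-flip permutation test, p = 0.125, the smallest that 4 libraries allow). Over merged regions the overlapped share was 1.59% at protein-coding genes and 6.10% away from all genes (90 of 1476), against 3.27% at noncoding genes. Of the 27 regions 15 were called in all 4 METTL14 libraries, and 10 were called in all 8 libraries of both antibodies. The 4 METTL14 libraries thus often counted the same regions, against the same pooled METTL3 peaks. Their differences are therefore not independent of one another. None of the nuclear tRNA regions and none of the 38 snRNA regions had a METTL3 peak, whereas both mitochondrial noncoding sites had one.

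The sites that both antibodies shared stood early in the deposited lists, whose order is not explained in the sources used here. The median position of the 27 was 5.23% of the way down the METTL14 lists, and that of the other noncoding regions 58.8%. The 10 regions of all 4 METTL14 libraries that came first were all overlapped by at least 1 METTL3 library. They were led by Gm33838 at chr9:35305369-35305518, which was peak 5 of both control lists and peak 6 of both CKO lists. Rn18s-rs5, a copy of 18S rRNA sequence, had 2 of them, chr17:39846445-39846676 and chr17:39848204-39848413. The others were the mitochondrial region and regions at Gm36876, Gm46595, Gm40034, Gm12223, Gm30821 and the pseudogene Gm8357. The part that repeated or multi-copy sequence takes in these calls was not tested.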

How the data were processed

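CUT&RUN peak lists of 4 METTL14 and 4 METTL3 libraries were used, 1 list per library. Per the submitters' processing notes, CASAVA, Trimmomatic 0.38, Bowtie2 2.4.1, SAMtools and HOMER were used, and reads were placed on mm10. How multi-mapping reads were treated, how deep each library was, which threshold a peak passed and whether a background library was used is not given in the sources used here. The deposited lists give peak positions and a score that is 1 for every peak, so no height could be compared. Peaks were counted as overlapping at 1 bp or more. Genes were taken from the RefSeq table of GRCm38.p6, leaving out 340 genes placed before 3 Mb on chromosomes 1 to 19 and X, which appear to carry scaffold positions (no peak of any library lay there), and sequences from its promoter and miRNA tables, in which all 16 miRNA genes were found.

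The library was the replicate. Groups were compared with exact permutation tests and peak classes within libraries with sign-flip tests. Intervals for shares (95%, Wilson) reflect counting error alone. A planned comparison with the share of assembly bases was replaced by regions per Mb of gene windows, as the assembly length was not used here. Members, gene lists and tests were chosen with earlier results of these data known. The regions named were the first in list order that all 4 libraries or 1 genotype called, those of each biotype called most often, genes with the most regions, and members at the gene lists. Other named regions and the tRNA-Cys contrast were chosen after their values were seen. The scripts were tested on simulated data. Python 3.11.15, pandas 2.3.3, NumPy 2.4.6, SciPy 1.17.1 and matplotlib 3.10.9 were used. Alternatives were other overlaps, windows, biotype rules and list lengths, and each library left out. The main group tests left libraries unpaired. Over 826 regions, replicate 1 minus replicate 2 in control was hardly correlated with the same in CKO (r = 0.05). That value cannot show whether libraries of the same number were made together.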

Additional observations from a re-analysis of the deposited data

Results flagged for a closer look

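METTL14 signal also appeared on sequences that the gene table does not place and that no comparison above uses. There were 123 merged METTL14 regions there, with 73 and 77 peaks in the control and 68 and 59 in the CKO libraries. Of these regions 33 were called in all 4 METTL14 libraries and 63 (51.2%) were overlapped by a METTL3 peak. Their median position was 5.44% of the way down the METTL14 lists.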

How the results depend on the processing

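Over the 13 results recomputed, changing 1 choice at a time with all libraries kept left 67 values at a like size and direction, moved 18 and reversed 7. The METTL3 difference and the higher tRNA share in CKO libraries kept their sign under each alternative run for them. The METTL3 difference ranged from 1.81 points without genes named only LOC or Gm to 9.05 points with lists of equal length. Merging peaks within 500 bp, leaving out chromosome 13 from 21 to 24 Mb and leaving out regions with METTL3 peaks were chosen after seeing the data. With 50% reciprocal overlap, the difference in repeated calls between noncoding and protein-coding genes reversed to 0.193 points. With a 1 kb window the ratio of tRNA to lncRNA density was 103.6, and with a 5 kb window it was 38.1, while the differences in noncoding and lncRNA share reversed to −0.399 and 1.95 points. With lists cut to equal length the log2 difference in peak number reversed to 0.0352 and that in repeated calls to 2.30 points. Equal length also gave 331 regions, 29.0% of them at tRNA genes, 39.9% in at least 2 libraries, 97.1% of tRNA peaks within 300 bp, a density ratio of 98.5, and 7 control-only against 9 CKO-only regions. Without genes named only LOC or Gm there were 383 regions, 42.0% at tRNA genes and 35.2% in at least 2 libraries, a density ratio of 44.4, 11 control-only and 3 CKO-only regions, and differences of 0.51 points in lncRNA share and 4.18 points in repeated calls, both reversed. Without the chromosome 13 stretch 10.3% of regions were at tRNA genes and the density ratio was 42.3. With peaks within 500 bp merged 15.2% were at tRNA genes and 36.95% were in at least 2 libraries. Leaving out 1 library at a time gave 24.5 to 26.2% in at least 2 libraries, 31 to 219 control-only and 20 to 229 CKO-only regions, log2 differences in number of −1.18 to 0.27 (higher only without CKO replicate 2), differences in noncoding share of −0.0286 (without control replicate 1) to 0.513 points, and in repeated calls of −2.27 to 1.86 points (above 0 without control replicate 2, at 0.102, and without CKO replicate 1). Fewer libraries by construction give fewer repeated calls, and a group left with 1 library holds more genotype-only regions; the cause of the other changes was not tested. With the replicate block the differences were the same, −0.947 points for the lncRNA and 6.61 for the tRNA share (exact sign-flip p = 0.5 for both, the smallest 2 pairs allow). Unknown depth limits every count of peaks.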

Other observations

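The X chromosome held 2 of the 826 noncoding sites (0.242%) and 37 of all 8091 METTL14 regions (0.457%), while 12.3 of the 266.23 Mb of noncoding gene windows and 1537 noncoding genes lie on it. Chromosome 13 held 127 noncoding sites (15.4%), 85 of them at tRNA genes, beside 6.11% of all METTL14 regions.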
